A study of Mus musculus with 8 samples.

Results

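The interferon-gamma induced GTPases described here are 9 mouse genes of the guanylate-binding protein (GBP) and immunity-related GTPase (IRG) families: Gbp2, Gbp3, Gbp4, Gbp6, Irgm1, Irgm2, Igtp, Iigp1 and Tgtp1. Their probes were found in the array table by the gene symbol that the platform annotation gives. A named probe was found for 8 of the 9 genes, with 14 probes of the 25697 in the table, and these 8 genes are among 16593 genes tested. Gbp6 has no named probe among them and was not analysed here.

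Interferon-gamma binds a receptor made of Ifngr1 and Ifngr2, and the kinases bound to it start a signal that switches on target genes in the nucleus, in part through the transcription factor IRF1. GBPs and IRGs are among the most strongly induced of these targets in mouse cells. Their proteins load onto the membranes of vacuoles that hold intracellular microbes, and GBPs also help to expose bacterial lipopolysaccharide to caspases of the cytosol. Most cell types can make them when exposed to interferon, macrophages included.

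RNA was measured in cells of renin lineage (CoRL), the renin-producing cells of the juxtaglomerular apparatus and their descendants, sorted by fluorescence from kidneys of Ren1cCre×Rs-ZsGreen-R mice. In these mice the Cre recombinase is driven by the renin gene and marks the cells with ZsGreen for life. The sort was thus designed to collect cells that have, or once had, an active renin gene. Day 5 FSGS mice (n = 4) had received 2 doses of a sheep anti-glomerular antibody, 12 mg per 20 g of body weight each, 24 hours apart, a model of focal segmental glomerulosclerosis (FSGS) with abrupt loss of podocytes, and were killed 5 days after the second dose. Uninjured mice (n = 4) had the same transgenes and matched ages but were given no antibody, so the antibody and the injury cannot be told apart in this design. Each mouse gave 1 Illumina MouseRef-8 v2.0 BeadChip.

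Levels below are on a log2 scale after background correction and quantile normalization, and a change is the day 5 FSGS mean minus the uninjured mean. A gene was called when its Benjamini-Hochberg adjusted p, from limma over all 16593 genes, was at most 0.01. A probe was detected on an array when its detection p against the negative control beads was below 0.01. The arrays differed in how much they detected. Between 11153 and 11700 probes were detected in day 5 FSGS mice, against 5793, 8365, 10016 and 12052 in uninjured mice 1 to 4 (exact permutation test, two-sided, p = 0.143, 70 arrangements, smallest possible 0.0286). Uninjured mice 1 and 2 had the lowest counts of all, though the uninjured counts were graded. Of 14 measured marker genes of renin cells, smooth muscle and pericytes, 0 were called by limma (2 had an unadjusted p below 0.05), and their mean level was 5.77 to 6.57 in day 5 FSGS mice, against 5.88 to 6.21 in uninjured mice. Ren1, Ren2 and Akr1b7, the defining markers, were not analysed here. Of the 14 measured genes, 2 were detected in all uninjured mice. The same held for 14 of 16 proximal tubule genes and for 11 of 20 macrophage and monocyte genes. The sorted RNA thus also held signal of marker genes of other cells, and the purity of the sort was not tested. Markers of macrophages and monocytes were measured for 20 genes, of which 13 were called higher and 0 lower. All 20 had a higher mean in day 5 FSGS mice. Without day 5 FSGS mouse 3, 18 were called higher, and without any other single mouse 0 were called.

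Gbp3 rose in the sorted cells of day 5 FSGS mice and was the only member that passed the threshold. Gbp2, Igtp and Irgm2 had adjusted p values between 0.01 and 0.05, Gbp4 stood just beyond, and Irgm1, Iigp1 and Tgtp1 had overlapping groups. Thus 1 of 8 members was called higher and 0 lower (5 had an unadjusted p below 0.05), against 1.91% of all genes called higher. With the limit for adjusted p set to 0.05 there were 4 of 8, against 8.52% of all genes. In 5 of 8 members every day 5 FSGS mouse was above every uninjured mouse, which held for 10.4% of all genes. The median change over the 8 members was 1.36, against -0.03 over all genes. Calls over the whole array changed with single mice, day 5 FSGS mouse 3 above all. Of all genes, 317 were called higher, 1191 when that mouse was left out, and 0 to 34 when any other single mouse was, and for the members these counts were 1, 4 and 0. Members of the GBP family had a median of 1.75 (3 genes) and those of the IRG family 0.38 (5 genes). The IRG median is the change of Iigp1, which was dim, and Tgtp1 was not detected in any mouse. Igtp and Irgm2 had changes of 1.73 and 1.06. The medians thus do not compare the families at like detection.

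**Figure D1:**
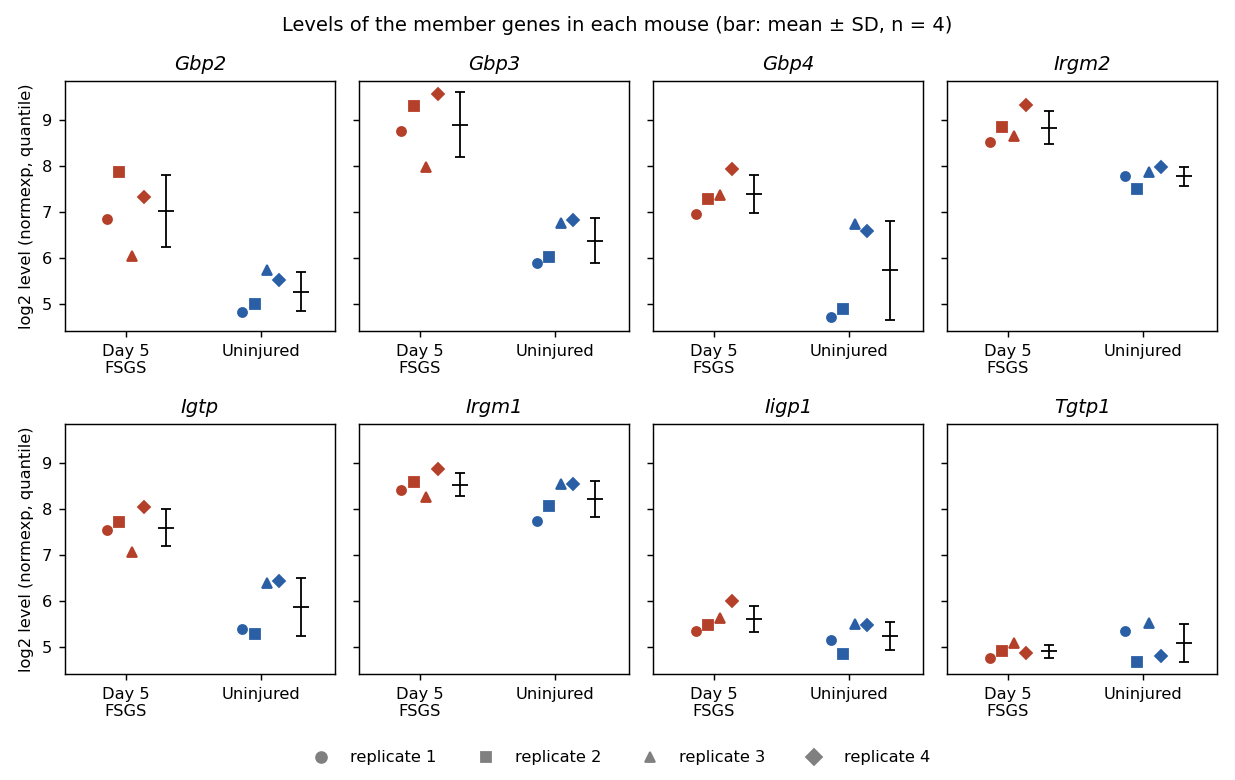
Log2 level of each member gene (vertical axis) in 4 day 5 FSGS mice (red, left) and 4 uninjured mice (blue, right), with marker shapes for the replicate and bars for mean ± SD. The groups are separate for Gbp2, Gbp3, Gbp4, Irgm2 and Igtp, and overlap for Irgm1, Iigp1 and Tgtp1.

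The GBP genes were followed by 6 probes. Gbp3, a guanylate-binding protein encoded in a cluster of Gbp genes on chromosome 3 between Gbp7 and Gbp2b, had levels of 8.77, 9.30, 7.97 and 9.56 in day 5 FSGS mice 1 to 4, against 5.90, 6.02, 6.76 and 6.83 in uninjured mice 1 to 4. Day 5 FSGS mouse 3 was the lowest of its group and still lay above the highest uninjured mouse. The mean was 8.90 ± 0.70 in day 5 FSGS mice and 6.38 ± 0.49 in uninjured mice (SD, n = 4 each), a change of 2.52 ± 0.37 (SE, limma adjusted p = 0.00753).

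The rise of Gbp3 was measured by both of its probes. The deposited intensities of ILMN_1244513 were 764, 971, 464 and 830 in day 5 FSGS mice, against 278, 243, 250 and 256 in uninjured mice, so the groups were separate before any normalization. Those of ILMN_2918002 were 713, 879, 343 and 766 in day 5 FSGS mice, against 230, 204, 204 and 226 in uninjured mice. The changes were 2.25 ± 0.31 and 2.79 ± 0.44 (SE), and both probes were called in the test over probes (adjusted p = 0.00638 and 0.00886). They were 2 of 14 member probes called higher, against 1.94% of all named probes. Both probes were detected in all 4 day 5 FSGS mice and only in uninjured mice 3 and 4.

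The call of Gbp3 changed when single mice were left out. Leaving out day 5 FSGS mouse 3 kept it (change 2.83, limma adjusted p = 0.000914). It was lost when any other single mouse was left out, with changes and adjusted p of 2.57 and 0.0286 (day 5 FSGS mouse 1), 2.39 and 0.0304 (mouse 2), 2.30 and 0.0225 (mouse 4), 2.36 and 0.021 (uninjured mouse 1), 2.40 and 0.0273 (mouse 2), 2.65 and 0.02 (mouse 3), and 2.67 and 0.0177 (mouse 4). The change was between 2.30 and 2.83 in all of these fits.

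Gbp2 is a guanylate-binding protein that coats vacuoles of intracellular parasites and bacteria. Its level was 6.85, 7.86, 6.03 and 7.33 in day 5 FSGS mice, against 4.82, 4.99, 5.73 and 5.51 in uninjured mice. The groups did not overlap, though day 5 FSGS mouse 3 was only slightly above uninjured mouse 3. The change was 1.75 ± 0.39 (SE, limma adjusted p = 0.0231), and it passed the threshold when day 5 FSGS mouse 3 was left out (2.08, adjusted p = 0.00284).

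The 3 probes of Gbp2 differed. ILMN_3122961 had intensities of 587, 832, 288 and 483 in day 5 FSGS mice, against 204, 201, 208 and 205 in uninjured mice, a change of 2.57 ± 0.47 on the normalized log2 scale (adjusted p over probes 0.0141). ILMN_2605602 was detected in 3 day 5 FSGS mice and in 0 uninjured mice, and was at least 1.42-fold higher in day 5 FSGS mice, a bound set by the dimmest probes detected on each uninjured array (adjusted p over probes 0.0176). ILMN_3047389 had overlapping groups, with a change of 0.68 ± 0.34 (adjusted p over probes 0.225). Its intensities were 210, 273, 153 and 171 in day 5 FSGS mice, against 208, 174, 176 and 163 in uninjured mice, and it was detected in 2 day 5 FSGS mice and 0 uninjured mice.

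Gbp4, a guanylate-binding protein of the Gbp cluster on chromosome 5, was read by 1 probe. Its level was 6.96, 7.29, 7.37 and 7.94 in day 5 FSGS mice, against 4.70, 4.90, 6.74 and 6.58 in uninjured mice. The uninjured mice were far apart, with mice 1 and 2 low and undetected and mice 3 and 4 close to the day 5 FSGS mice. The mean was 7.39 ± 0.41 in day 5 FSGS mice and 5.73 ± 1.08 in uninjured mice (SD, n = 4 each), and the change of 1.66 ± 0.50 (SE) did not pass the threshold (limma adjusted p = 0.0585). Without both uninjured mice 1 and 2 the change was 0.73 (adjusted p = 0.169).

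Igtp, Irgm2 and Irgm1 are the regulatory IRG proteins of the mouse, which sit on the cell's own membranes and keep the effector IRG proteins inactive there. Igtp had levels of 7.55, 7.73, 7.07 and 8.05 in day 5 FSGS mice, against 5.38, 5.28, 6.39 and 6.42 in uninjured mice. Every day 5 FSGS mouse was above every uninjured mouse, and the probe was detected in uninjured mice 3 and 4 only. The change was 1.73 ± 0.33 (SE, limma adjusted p = 0.0152), and without day 5 FSGS mouse 3 it was 1.91 and passed the threshold (adjusted p = 0.00583).

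Irgm2, whose gene lies next to Igtp on chromosome 11, was among the 2 members detected in all 8 mice. Its level was 8.53, 8.85, 8.64 and 9.33 in day 5 FSGS mice, against 7.78, 7.49, 7.86 and 7.98 in uninjured mice. Intensities were 649, 730, 554 and 697 in day 5 FSGS mice, against 372, 327, 319 and 385 in uninjured mice, so no normalization was needed to separate the groups. The change was the smallest of the 5 members with separate groups, 1.06 ± 0.19 (SE, limma adjusted p = 0.0133), and the uninjured mice were close together (SD 0.21). Without day 5 FSGS mouse 3 the change was 1.12 and passed the threshold (adjusted p = 0.00739).

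Irgm1, which is also needed for autophagy of mycobacteria in mouse macrophages, gave a gene level of 8.42, 8.59, 8.27 and 8.87 in day 5 FSGS mice, against 7.74, 8.08, 8.54 and 8.54 in uninjured mice. The groups overlapped, and the change of 0.31 ± 0.21 (SE) was not called (limma adjusted p = 0.375). This level is the mean of 3 probes that went different ways, so it describes none of them.

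Probe ILMN_1234539 of Irgm1 was higher in every day 5 FSGS mouse, with intensities of 446, 508, 319 and 430, against 249, 276, 252 and 285 in uninjured mice. Its change was 1.14 ± 0.36 (SE, limma adjusted p over probes 0.0691). Probe ILMN_2804037, the bright probe of the gene, ran the other way, with intensities of 3300, 3672, 3598 and 3799 in day 5 FSGS mice, against 3414, 3329, 5516 and 7520 in uninjured mice. Uninjured mice 3 and 4 were far above the other 6 mice, which lay close together. The change on the normalized log2 scale was -0.53 ± 0.24 (SE, adjusted p over probes 0.185). Probe ILMN_2711172 was dim, detected in 3 day 5 FSGS mice and 1 uninjured mouse, with a change of 0.32 ± 0.17 (SE, adjusted p over probes 0.265).

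The difference between ILMN_1234539 and ILMN_2804037 within a mouse was -3.61, -3.39, -4.23 and -3.51 in day 5 FSGS mice, against -6.13, -4.66, -5.28 and -5.36 in uninjured mice. These groups did not overlap (two-sided exact permutation p of 0.0286, which is the lowest that 4 against 4 mice allow; adjusted over the 8 pairs of probes of 1 gene, 0.0761). Which transcripts each probe reads was not tested, since the probe sequences were not used here.

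**Figure D2:**
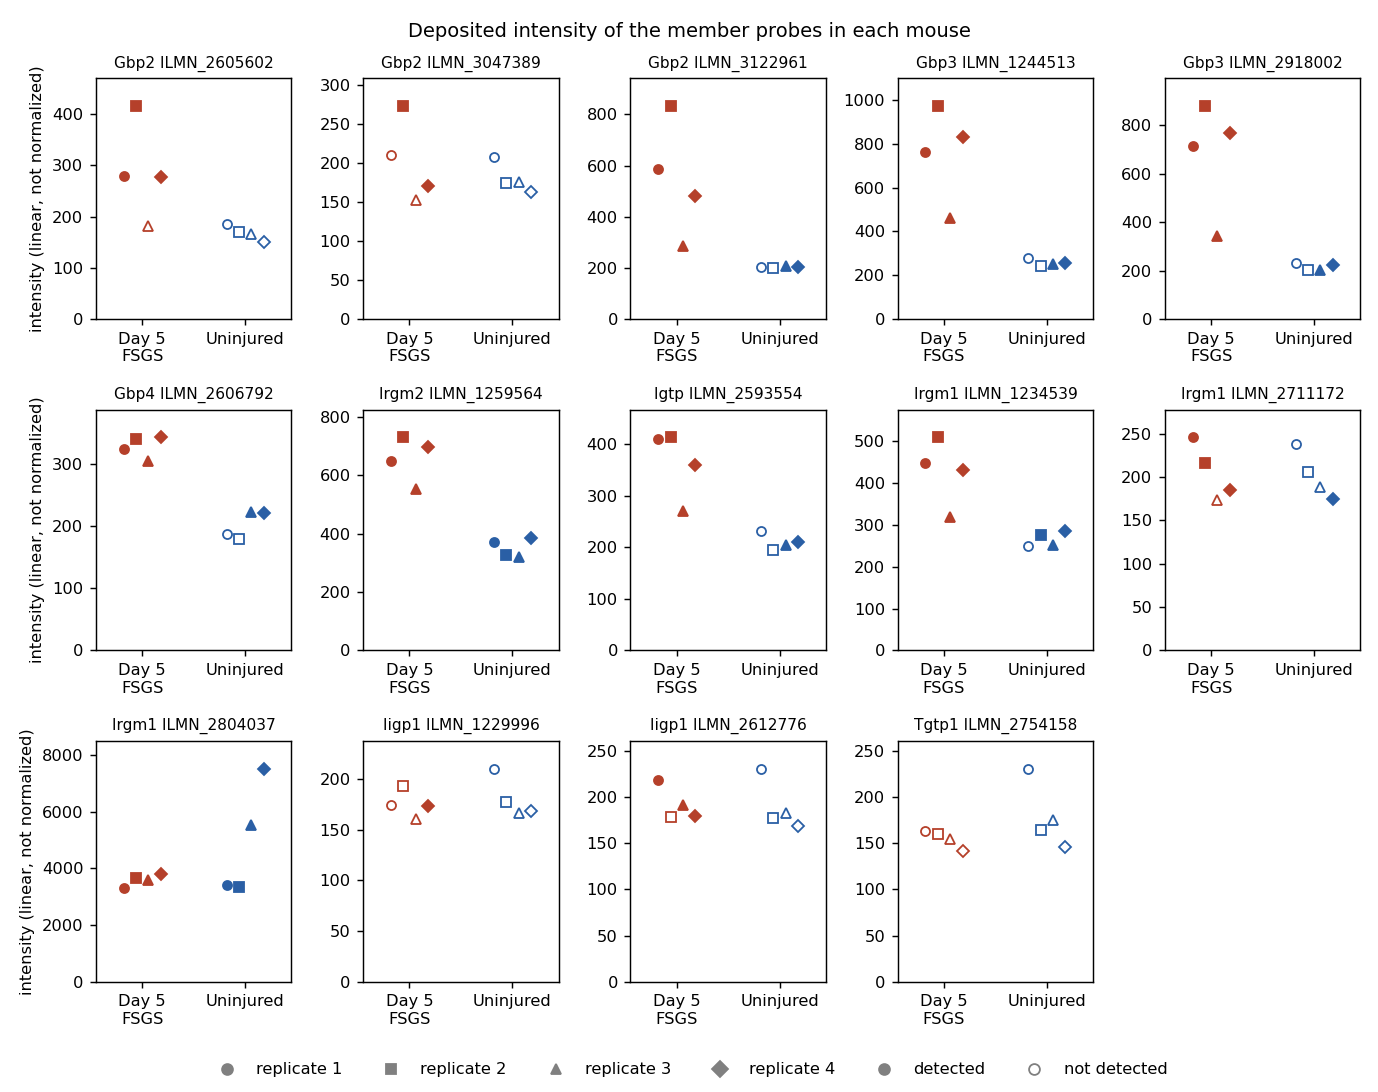
Deposited intensity (linear scale, from 0, with its own range in each panel) of the 14 member probes in 4 day 5 FSGS mice (red, left) and 4 uninjured mice (blue, right); open symbols are below detection. The 2 probes of Gbp3 are separate between the groups, while the 3 probes of Irgm1 go different ways.

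Iigp1 and Tgtp1 encode effector IRG proteins, which accumulate on vacuoles of Toxoplasma in mouse cells and break them open. Iigp1 was dim. Its gene level was 5.36 to 6.01 in day 5 FSGS mice, against 4.85 to 5.49 in uninjured mice. The groups overlapped and the change was 0.38 ± 0.19 (SE, limma adjusted p = 0.233), or -0.04 when arrays were scaled to their 75th percentile. At least 1 of its 2 probes was detected in 3 day 5 FSGS mice, and neither in an uninjured mouse. Tgtp1 was not detected in any of the 8 mice, so its level of 4.76 to 5.10 in day 5 FSGS mice and 4.67 to 5.51 in uninjured mice is that of the background, and no fold is given (change -0.17, limma adjusted p = 0.618). A difference in Tgtp1 that stays below detection could therefore not be read with this probe.

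Ordered by their change, the members ran Gbp3, Gbp2, Igtp, Gbp4, Irgm2, Iigp1, Irgm1 and Tgtp1, from 2.52 to -0.17. Gbp2, Igtp and Gbp4, at 1.75, 1.73 and 1.66, lay within 1 SE of each other.

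Within each group the members were low and high in the same few mice. In day 5 FSGS mice the highest level was in mouse 4 for 6 of 8 members, and the lowest in mouse 3 for 4 members and in mouse 1 for the other 4. In uninjured mice the lowest was in mouse 1 for 4 members and in mouse 2 for 4. The mean over the 8 members was 7.15, 7.50, 7.01 and 7.74 in day 5 FSGS mice, against 5.85, 5.78, 6.63 and 6.52 in uninjured mice. Detected member genes numbered 7, 6, 7 and 7 of 8 in day 5 FSGS mice, against 2, 2, 6 and 6 in uninjured mice. The low members in uninjured mice 1 and 2 thus stood on the arrays that detected the fewest probes, and the part of detection in the result was not tested. With both of those arrays left out, the median change of the members was 0.83, 0 members were called by limma (5 had an unadjusted p below 0.05), and 0 of all genes were called (3922 had an unadjusted p below 0.05).

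The macrophage and monocyte markers followed a like order over the day 5 FSGS mice. Their mean level over 20 genes was 9.92, 10.21, 8.77 and 10.41 in day 5 FSGS mice, against 7.33, 7.08, 7.54 and 7.61 in uninjured mice, and 18 of 20 had separate groups. Adgre1, a defining surface marker of mouse macrophages, was at 9.67 to 11.00 in day 5 FSGS mice and at 7.47 to 8.36 in uninjured mice. Of other blood cell markers, 1 of 9 of dendritic cells (Itgax), 1 of 19 of T and NK cells (Cd3g), 0 of 6 of B cells and 0 of 9 of neutrophils were called higher by limma. With the limit for adjusted p at 0.05, 4, 6, 0 and 1 were higher. In the same order, 5, 9, 1 and 1 had an unadjusted p below 0.05. Of 13 endothelial genes 0 were called and 4 had an unadjusted p below 0.05. Of 6 podocyte genes 1 was called higher (Ptpro). Of 16 proximal tubule genes 2 were called lower, Slc22a12 and Hpd, the latter detected in only 1 mouse. All 16 had a lower mean in day 5 FSGS mice, with a median change of -1.27. Of them, 13 had an unadjusted p below 0.05 and 12 had separate groups. Of 8 distal nephron genes 0 were called (6 with an unadjusted p below 0.05). The proximal tubule mean was 9.30, 8.81, 9.82 and 7.67 in day 5 FSGS mice, against 10.34, 10.54, 10.32 and 10.27 in uninjured mice. The part of other cells in the levels of the GTPases was not tested. In such a bulk sample, more cells that carry a transcript and more of it per cell cannot be told apart.

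**Figure D3:**
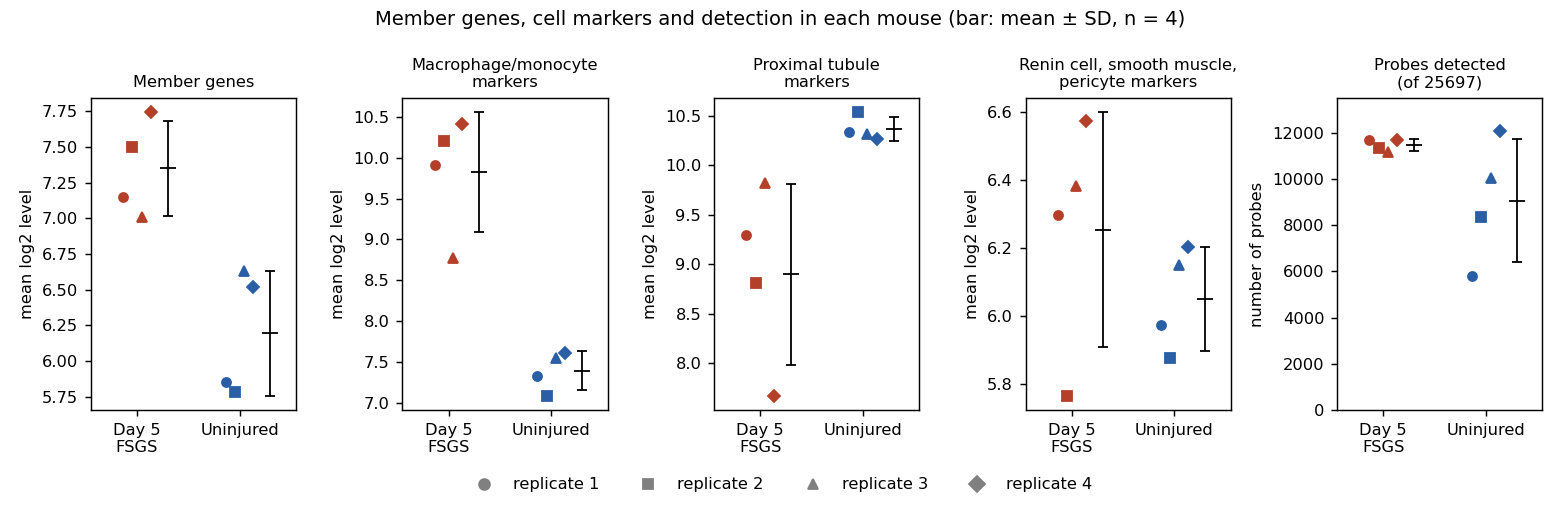
Mean log2 level of the 8 member genes and of 3 marker lists, and the number of probes detected, in 4 day 5 FSGS mice (red, left) and 4 uninjured mice (blue, right), with bars for mean ± SD. The members and the macrophage markers are higher in every day 5 FSGS mouse, and uninjured mice 1 and 2 are lowest both for the members and for probes detected.

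The promoters of the members that could be read are shown because interferon is known to act on these families through DNA motifs, whether or not the gene was called here. The interferon-stimulated response element (ISRE) binds interferon regulatory factors, and its core was searched as GAAANNGAAA. The gamma-activated site (GAS), a motif of genes that respond to interferon-gamma, was searched as TTCNNNGAA. Both were searched on both strands, from 250 bases before to 50 bases after the start of each gene, in RefSeq promoter windows of build GRCm38.p6. Windows were matched for Gbp2, Gbp3, Irgm1, Irgm2, Igtp and Tgtp1, and not for Gbp4, Gbp6 and Iigp1. All 6 matched members held an ISRE core, against 3.44% of 32851 windows, and 3 of them (Irgm2, Igtp and Tgtp1) held a GAS, against 8.3% of windows. Members were counted by gene, when any of their windows held the motif, and the shares by window. Gbp3 had a further window, which held 0 ISRE cores and 0 GAS. In each of the 6 members the core stood upstream of the start, between positions -77 and -15. Below, 60 bases of each are written on the strand of the gene, with the ISRE core in capitals (2 overlapping cores in Gbp3 and in Irgm1).
Gbp2, chr3:142620569-142620628, plus strand: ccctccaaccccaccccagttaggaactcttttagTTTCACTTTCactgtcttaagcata
Gbp3, chr3:142559964-142560023, plus strand: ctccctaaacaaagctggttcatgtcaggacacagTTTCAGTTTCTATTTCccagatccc
Irgm1, chr11:48871426-48871485, minus strand: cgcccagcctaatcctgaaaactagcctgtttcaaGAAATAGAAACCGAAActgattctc
Irgm2, chr11:58214878-58214937, plus strand: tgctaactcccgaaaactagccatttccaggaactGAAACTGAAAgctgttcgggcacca
Igtp, chr11:58199487-58199546, plus strand: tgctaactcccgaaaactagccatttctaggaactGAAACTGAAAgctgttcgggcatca
Tgtp1, chr11:48992299-48992358, minus strand: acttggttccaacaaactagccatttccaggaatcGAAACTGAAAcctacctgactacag

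In Irgm2, Igtp and Tgtp1 the GAS letters end 2 bases before the core. The 60 bases of Igtp and Irgm2 are identical at 58 positions, while those of Tgtp1 match Igtp at 37 and Irgm2 at 39. Gbp3, with the highest change, and Gbp2 held an ISRE core and no GAS in this window, whereas Tgtp1, which was not detected, held both. A match of letters is not a bound site, and binding was not measured here.

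Of 16 other genes listed for the GBP and IRG families, 10 had a named probe. The list was chosen with earlier results of these data known and need not hold every gene of these families. Ifi47, an IRG protein, rose and was the only gene called (1 of 10), with levels of 8.32, 8.77, 7.65 and 8.83 in day 5 FSGS mice, against 5.36, 5.48, 6.04 and 6.67 in uninjured mice. Its change was 2.51 ± 0.35 (SE, limma adjusted p = 0.007), close in size to that of Gbp3. Without day 5 FSGS mouse 3 the list had 5 calls, and without any other single mouse 0. A further 4 genes, Gbp8, Gbp9, Gvin1 and Gbp7, had changes of 1.74, 1.10, 1.50 and 1.36 and adjusted p values of 0.0101, 0.0116, 0.0176 and 0.0188. The median change was 0.87, below that of the members, and Irgc1, named after its values were seen, had a change of -0.74 (adjusted p = 0.0695). Promoter windows were matched for 5 of the 16. Of these, 4 held an ISRE core and 3 held a GAS (Gbp5, Gbp7 and Tgtp2). The window of Ifi47, the gene that was called, held neither.

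**Figure D4:**
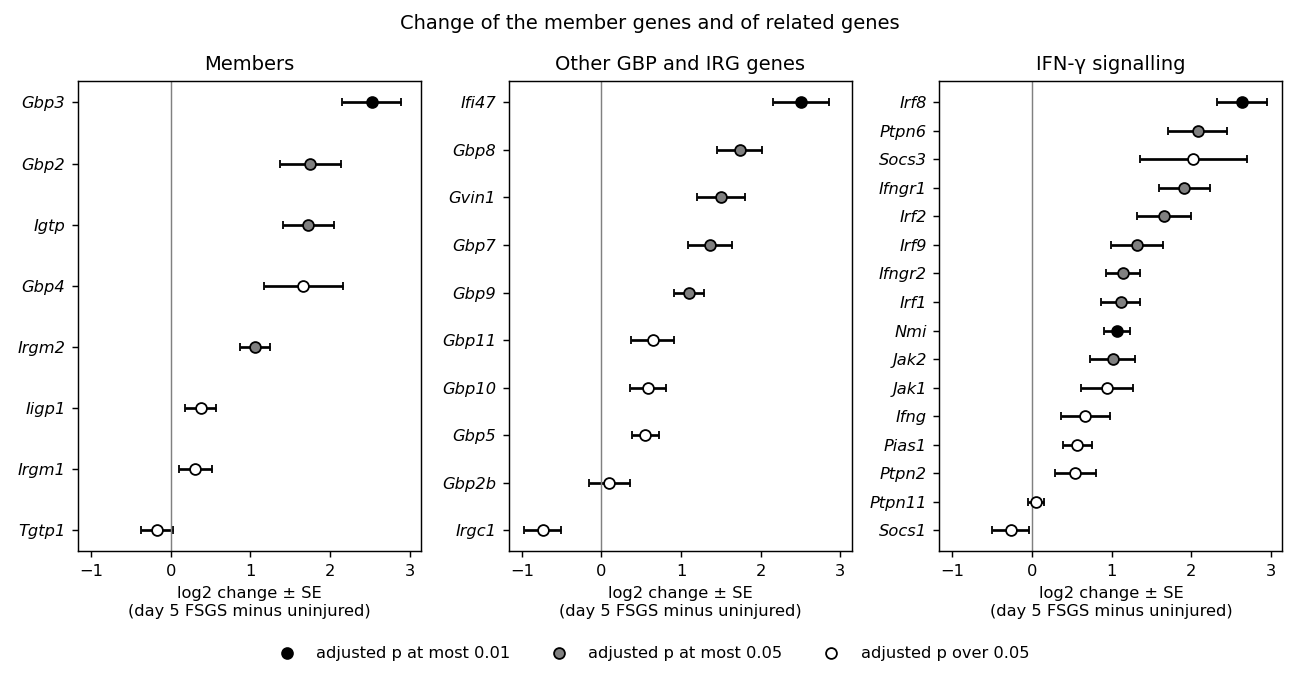
Log2 change ± SE (day 5 FSGS minus uninjured, horizontal axis) of the 8 members, of 10 other GBP and IRG genes and of 16 genes of interferon-gamma signalling; black, grey and white fills mark the adjusted p. Gbp3, Ifi47, Irf8 and Nmi passed 0.01, and most genes of each panel lie right of 0.

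Upstream of the GTPases, the cytokine itself was near background. Ifng had levels of 6.18, 5.85, 5.98 and 5.68 in day 5 FSGS mice, against 4.80, 4.59, 5.93 and 5.71 in uninjured mice. The groups overlapped (change 0.67 ± 0.31, SE, limma adjusted p = 0.182), and it was detected in 4 day 5 FSGS mice and 1 uninjured mouse. Ifngr1, the ligand-binding chain of the receptor, had levels of 9.81, 10.15, 8.59 and 9.97 in day 5 FSGS mice, against 7.65, 7.46, 7.93 and 7.83 in uninjured mice, with separate groups (change 1.91 ± 0.32, SE, adjusted p = 0.011). Ifngr2, the signalling chain, had a change of 1.14 ± 0.21 (SE, adjusted p = 0.0146), also with separate groups.

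Of 16 genes of interferon-gamma signalling 2 were called, both higher, and 9 were higher with the limit at 0.05. There were 8 calls without day 5 FSGS mouse 3 and 0 without any other single mouse. Irf8, a transcription factor of myeloid cells, rose by 2.63 ± 0.32 (SE, adjusted p = 0.0054), to between 8.25 and 9.65 in day 5 FSGS mice, against 6.12 to 7.00 in uninjured mice. Nmi, a protein induced by interferon, rose by 1.07 ± 0.17 (SE, adjusted p = 0.00829). Irf1, which relays the signal to the GTPase promoters, was at 8.02, 8.49, 7.97 and 8.45 in day 5 FSGS mice, against 6.85, 6.67, 7.74 and 7.23 in uninjured mice, a change of 1.12 ± 0.24 (SE, adjusted p = 0.023).

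Irf1 also had a pattern over the 8 mice close to that of the members. Among 6970 other genes with a detected probe in every mouse of a group, the 5 with the smallest root mean square difference from the centred mean of the members were Fchsd2 (0.0964), Irf1 (0.132), Map1s (0.137), Lpar6 (0.141) and Gsap (0.144). Fchsd2 acts in endocytosis, Map1s binds microtubules, and Lpar6 is a receptor for lysophosphatidic acid. This likeness is a description over 8 arrays and includes the difference between the groups.

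Of 29 other interferon-gamma targets 15 were called higher and 0 lower, against 1.91% of all genes called higher. The mean was higher in day 5 FSGS mice for 27 of them, and 22 were higher with the limit at 0.05, against 8.52% of all genes. The median change was 1.36, the same to 2 decimals as that of the members. The largest changes among those called were in Psmb9, Psmb8, H2-Eb1 and Psmb10, at 2.34, 1.99, 1.88 and 1.75. Psmb8, Psmb9 and Psmb10 encode the catalytic subunits of the immunoproteasome, and H2-Eb1 a chain of MHC class II. Psmb9 was at 10.55, 11.00, 9.91 and 10.54 in day 5 FSGS mice (SD 0.45), against 8.38, 7.77, 8.27 and 8.23 in uninjured mice (SD 0.27). The list shares genes with professional antigen-presenting cells, and the macrophage markers above rose in the same mice. Of 22 genes induced by type I interferon 8 were called higher and 0 lower, with a median of 1.19. All 22 had a higher mean in day 5 FSGS mice, and 14 were higher with the limit at 0.05. The largest changes were in Oas2 (3.09), Oasl2 (2.57), Dhx58 (1.98) and Ifit2 (1.91), which sense viral RNA or restrain its translation. Many of these genes respond to both kinds of interferon. Calls in these lists numbered 21 and 14 without day 5 FSGS mouse 3, and 0 or 1 without any other single mouse.

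Partners of the GTPases were divided. Of 8 genes of the inflammasome and of cytosolic lipopolysaccharide sensing, 1 was called, Gsdmd, the pore-forming gasdermin D, with 6.33 to 7.24 in day 5 FSGS mice and 4.94 to 5.41 in uninjured mice (change 1.75 ± 0.22, SE, limma adjusted p = 0.0058). In all, 7 of these 8 were higher with the limit at 0.05, and the median change was 1.62 (7 calls without day 5 FSGS mouse 3, and 0 without any other single mouse). Of 16 genes for autophagy and the targeting of GTPases to vacuoles 0 were called (3 had an unadjusted p below 0.05), with a median of -0.17 (1 call without day 5 FSGS mouse 3). With the limit at 0.05, 1 was higher, Trim21 (change 0.89 ± 0.16, SE, limma adjusted p = 0.0135). Gabarapl1, which had the highest mean level of that list, was at 9.30 to 11.50 in day 5 FSGS mice and 10.98 to 11.44 in uninjured mice (change -0.83 ± 0.41, SE, adjusted p = 0.221). Of 9 other large GTPases of the dynamin superfamily, which are not known as interferon targets, 0 were called (3 had an unadjusted p below 0.05) and the median was -0.22 (2 were called lower without day 5 FSGS mouse 3). With the limit at 0.05, 3 were lower (Mfn1, Opa1 and Dnm1l), against 964 of 16593 genes. Mfn1, a GTPase of mitochondrial fusion with the highest mean level of the 9, had a change of -0.83 ± 0.17 (SE, adjusted p = 0.0176).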

How the data were processed

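Intensities on a linear scale, not normalized, and detection p-values against negative control beads were deposited by the authors for 25697 probes; RNA had been amplified before labelling. The authors also deposited a processed signal after variance stabilization and quantile normalization with lumi (its version is not given in the sources used here), used as an alternative. No column was left unmapped (0). Of the probes, 23978 have 1 platform symbol, 0 several and 1719 none; 23962 matched the RefSeq gene table (GRCm38.p6) by gene number.

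In limma 3.58.1 (R 4.3.3), the background was fitted by normexp from the detection p-values (offset 16), and log2 levels were quantile normalized. Probes of a gene were averaged, groups compared by lmFit and eBayes with group as the only term, and p-values adjusted by Benjamini-Hochberg over 16593 genes, or over named probes; the study's threshold of 0.01 was used. A dim probe's bound set the bright group's mean against the lowest detected signal of each dim array. Differences within a mouse were compared by exact permutation tests. Figures were drawn with matplotlib 3.10.9. The test, tried on simulated data with the same 16593 genes, recovered 30%, 62% and 90% of log2 changes of 1, 2 and 3, with 2 false calls. The simulated noise was independent between genes, and changes were placed only in genes above the median uninjured level. These rates therefore need not hold for dim genes or for shifts that genes share within a mouse.

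Each mouse is a separate sample. Replicate numbers did not pair mice: the deviations of same-numbered mice correlated at 0.0611, -0.0916, -0.0709 and 0.111. The members and lists were chosen with earlier results of these data known. Named were all members, from each pathway list the called genes (at most 4, by change) or that with the highest mean level, and Ifng, Ifngr1, Ifngr2 and Irf1; other genes named were chosen after their values were seen. Alternatives covered background, scaling, filters, probe choice, tests, a replicate block and leaving out mice.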

Additional observations from a re-analysis of the deposited data

How the results depend on the processing

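The 8 measured members were refitted under 24 other settings each (23 for Iigp1 and 22 for Tgtp1, whose probes fail a detection filter). Single mice were left out after normalizing all 8, and the methods' Bayesian test was rebuilt from its formula. Gbp2, Gbp3, Gbp4, Igtp and Irgm2 were higher in day 5 FSGS mice under all of them, Gbp3 between 1.41 and 2.83. Directions reversed for Irgm1 with its brightest probe alone (-0.53) and without both uninjured mice 1 and 2 (-0.004972, or nearly 0), and for Iigp1 with 75th percentile scaling (-0.041). The call of Gbp3 was lost in 11 of 24 settings.

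Calls moved with the setting. Reported were 1 member gene, 2 member probes and 27 of the other pathway genes higher, with 317 of all genes higher and 66 lower. Counts of member genes, member probes, pathway genes and all genes called higher, and all genes called lower, were 0, 0, 9, 154 and 46 with normexp offset 50. They were 1, 3, 28, 352 and 126 without background correction and 3, 6, 44, 719 and 38 with median scaling. Scaling to the 75th percentile gave 3, 6, 38, 579 and 446, and the authors' table gave 1, 1, 27, 309 and 116. They were 4, 5, 48, 784 and 216 for probes detected in every mouse of either group and 4, 6, 48, 694 and 182 with probes detected on at least 1 array. They were 3, 6, 44, 554 and 107 with an intensity trend and robust variances, 3, 6, 48, 973 and 481 with array weights, 5, 7, 56, 993 and 645 with the methods' Bayesian test and 4, 6, 58, 1413 and 964 with the limit at 0.05. All were 0 with a t-test with unequal variances (after Benjamini-Hochberg, with 5 members and 3822 genes at an unadjusted p below 0.05) and with a replicate block in limma (6 members and 4879 genes unadjusted). The methods name that t-test in a general statistics section, while array genes were tested there with the Bayesian test. For 1 of 4 replicate numbers the day 5 FSGS mouse correlated best with the uninjured mouse of its own number, and the numbers were not taken to pair the mice. Pathway genes called lower were 0, but 3 with array weights and 3 with the limit at 0.05. Scaling moved the median change of all genes from -0.03 to -0.18 (median) and -0.52 (75th percentile), that of the members from 1.36 to 1.57 and 1.23, and the share of calls that were higher from 82.8% to 95% and 56.5%.

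With single mice left out, the counts ranged from 0 to 4 (member genes), 0 to 6 (member probes), 0 to 56 (pathway genes higher), 0 to 2 (pathway genes lower), 0 to 1191 (all genes higher) and 0 to 715 (all genes lower). Each maximum came without day 5 FSGS mouse 3. Chosen after seeing the data, leaving out both uninjured mouse 1 and day 5 FSGS mouse 3 gave 2, 4, 49, 1086 and 632 calls with 2 pathway genes lower, and leaving out both uninjured mice 1 and 2 gave 0 throughout. The causes were not tested. With a detection limit of 0.05, 11 of 14 member probes were detected in all day 5 FSGS mice and 2 in all uninjured mice. Signal over background limits Iigp1, Tgtp1 and the uninjured levels of Gbp2, Gbp3, Gbp4 and Igtp.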
